A study of Mus musculus with 57 samples.

Results

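Early 2-cell mouse embryos labelled as a knockout of MT2Mm were compared with wild-type embryos of the same stage by sequencing of total RNA, with 3 libraries in each group. The deposited table holds 59119 rows, each an Ensembl gene or an unannotated locus numbered with the prefix XLOC, and 11989 of them are described here. These are all the rows with an FPKM (fragments normalised to transcript length and to the mapped fragments of the library) of at least 1 in at least 3 of the 6 libraries, and 9935 of them reached 1 FPKM in all 6. The third-highest of the 6 values was 1.00005 FPKM in the row just inside this rule and 0.999959 FPKM in the row just outside it. Both groups came from embryos labelled with the strain BDF1 and an age of 6-8 weeks, and their genotypes were given as wild type and as MT2Mm KO. The same 2 genotypes were sampled at the late 1-cell stage, again with 3 libraries each, and these 6 libraries show where a difference was already present before cleavage. The labels of the 12 MT2Mm samples do not give the method of the knockout, the share of MT2Mm copies removed, whether the wild-type embryos were injected, the collection hour, or the number of embryos in a library. The protocol carried by the other samples of the series describes injection of guide RNA and Cas9 mRNA into metaphase II oocytes, a procedure whose embryos can be mosaics of edited and unedited cells. The table has no row for MT2Mm, so the knockout itself could not be checked in these values. Nothing in the labels says that the libraries of a group came from separate matings, so the p-values measure only the spread between these samples.

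MT2_Mm is the long terminal repeat of MERVL, a family of endogenous retroviruses with many copies in the mouse genome. The mouse embryo starts to transcribe its own genome at the end of the 1-cell stage and in the 2-cell stage, and MERVL repeats and transcripts that start inside their long terminal repeats are among the best known products of this activation. Over the same hours most of the RNA that the oocyte stored is broken down.

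The summed FPKM of a library was 476870 to 520212 in the early 2-cell controls and 443518 to 453176 in the knockout embryos. The number of sequenced fragments cannot be read from these values. Small RNA genes and rRNA genes together took 56.1 to 58.0% of the summed FPKM in the controls and 51.0 to 52.8% in the knockout embryos, and protein-coding genes took 30.5 to 32.6% and 36.0 to 37.0%. Control replicate 1 stood apart within these sums, with 55.4% in small RNA genes and 0.908% in rRNA genes, against 40.5 to 45.6% and 9.05 to 12.5% in the other 5 early 2-cell libraries. The combined shares moved with the groups, and their part in the results was not tested. An FPKM is a share of a library, so a fall of some RNAs raises the values of all others. Scaling each library by the median of its ratios moved the median difference over all rows by -0.13 on the log2 scale, and the counts below that turn with this scaling are given with both values. None of 20 markers of cumulus and granulosa cells reached the FPKM rule; their summed level was 4.13 to 5.34 FPKM in the controls and 5.20 to 5.54 FPKM in the knockout embryos, and Lhcgr and Inha were listed at 0 in all 6 libraries. Of 15 sperm and testis markers, 1 reached it and 7 were listed at 0 in all 6 libraries, with summed levels of 2.69 to 3.39 FPKM and 3.46 to 4.37 FPKM.

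More rows were higher than lower in the knockout embryos, and the lower ones differed by more. Differences are given on the scale of log2(FPKM + 0.5), knockout minus control, with the standard error of the limma fit; a row was called where its Benjamini-Hochberg adjusted p was below 0.05 over the 13180 rows tested. Of the 11989 rows, 6087 were called, which is 50.8%: 4041 (33.7%) were higher in the knockout embryos and 2046 (17.1%) were lower. With a difference of at least 1, a factor of at least 2 on this scale, 380 rows were higher and 511 were lower. All 3 knockout values lay above all 3 control values in 4478 rows (37.4%) and below them in 2503 rows (20.9%). Of these members, 262 passed the FPKM rule only through the controls and 282 only through the knockout embryos, and without them 3774 rows were higher and 1790 lower. Without control replicate 1, which stood apart in its rRNA share, 3784 rows were higher and 1888 lower. Under median-of-ratios scaling 2866 rows were higher and 3334 lower, so the majority turned with the scaling. At the late 1-cell stage, by contrast, 14 of the same rows (0.117%) were called between the genotypes. The difference between the knockout effects at the 2 stages was itself called for 4706 rows (39.3%). For rows near 0 FPKM at the late 1-cell stage the pseudocount of 0.5 holds the effect there near 0. In such rows this call mostly repeats the early 2-cell difference.

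The libraries grouped by genotype at the early 2-cell stage. Across the tested rows the correlation of log2 values was 0.976 to 0.984 between control libraries, 0.987 to 0.990 between knockout libraries and 0.946 to 0.952 between the groups. Early 2-cell controls correlated with late 1-cell controls at 0.729 to 0.762, and early 2-cell knockout libraries correlated with them at 0.833 to 0.847. All pairs share the same genes, which are not independent replicates, so these values only describe the libraries. By this measure every early 2-cell knockout library stood nearer to the late 1-cell embryos than every early 2-cell control did.

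The stage at which a gene normally appears or disappears sorted the changes. Each row was classed from a wild-type C57BL/6 series in the same table, which shares no library with the knockout comparison and has 2 libraries for each of 8 stages; a row had risen or fallen between stages where its adjusted p was below 0.05 and its log2 change at least 1. Among the 1652 rows that had risen from the zygote to the stage labelled E2-cell, 865 (52.4%) were lower in the knockout embryos and 139 (8.41%) were higher, with a median difference of -0.28; 373 were lower by at least 1 and 2 were higher by at least 1. Among the 1539 rows that had fallen over the same step, 1120 (72.8%) were higher, 21 (1.36%) were lower, and the median was 0.52. Rows newly made at the 2-cell stage were thus often low in the knockout embryos, and rows normally cleared by then were mostly high. Over all rows the shares were 17.1% lower and 33.7% higher. Of the 262 rows that passed the FPKM rule only through the controls, 256 were lower. Of the 282 that passed it only through the knockout embryos, 267 were higher. The rule nearly fixes the direction of such rows. Counts by stage class and by kind of RNA keep them and were not made without them.

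In the FPKM as deposited, rows whose change in the wild type came only after the E2-cell had medians above 0. For those that rose, this median is smaller in size than the shift of -0.13 that median-of-ratios scaling made over all rows. The 1331 rows that rose only from the E2-cell to the stage labelled L2-cell had a median of 0.12, with 409 (30.7%) higher and 152 (11.4%) lower (279 and 270 under median-of-ratios scaling), so their lower share was under the 17.1% of all rows. The 2790 rows that fell only over that step had a median of 0.19, with 1222 (43.8%) higher and 159 (5.70%) lower. The 4182 rows in neither kind of class had a median of 0.02, with 1089 higher and 691 lower; this turned to 671 higher and 1372 lower under median-of-ratios scaling, and to 905 higher and 960 lower when libraries were scaled to their protein-coding sum. Within the rows risen by the E2-cell, those that stayed up to the L2-cell (1299 rows, 708 lower and 84 higher, median -0.32) and those that fell again (353 rows, 157 lower and 55 higher, median -0.18) both had more lower than higher calls. At the late 1-cell stage the median difference of each of these classes was between -0.06 and -0.01. The rows risen by the E2-cell had late 1-cell medians of only 0.134 to 0.202 FPKM across controls and knockout embryos. At such levels the pseudocount holds their differences small.

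**Figure D1:**
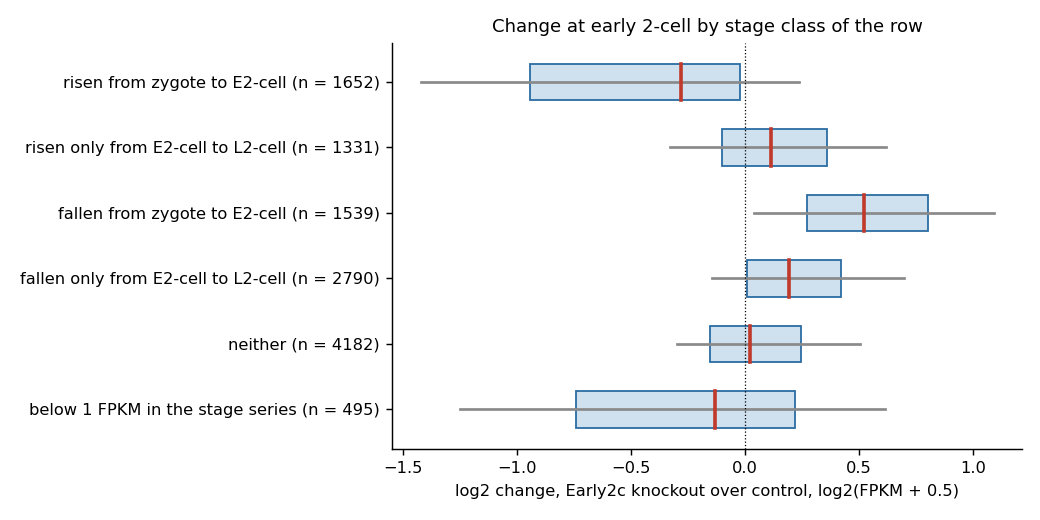
Log2(FPKM + 0.5) difference between knockout and control early 2-cell embryos (horizontal axis) for the rows of each stage class of the wild-type series (vertical axis); boxes span the 25th to 75th percentile, thin lines the 10th to 90th, and the red mark is the median. The box of rows risen from zygote to E2-cell runs from -0.94 to -0.02 and that of rows fallen over this step from 0.27 to 0.81, so the middle ranges of these classes lie on opposite sides of 0.

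The level of these classes in each library shows the same pattern without a model. The median FPKM of the rows risen by the E2-cell was 0.188, 0.202 and 0.196 in the late 1-cell controls, 6.14, 6.69 and 6.35 in the early 2-cell controls, and 4.48, 4.38 and 4.32 in the early 2-cell knockout embryos. In the late 1-cell knockout embryos it was 0.144, 0.134 and 0.148, below every late 1-cell control. At such low levels the pseudocount holds the differences of the fit small. The difference between these late 1-cell medians was not tested. For the rows fallen by the E2-cell the median FPKM was 7.82, 6.80 and 7.47 in the late 1-cell controls. It was 2.32, 2.33 and 2.34 in the early 2-cell controls and 3.76, 3.41 and 3.84 in the early 2-cell knockout embryos. In the late 1-cell knockout embryos it was 7.43, 7.05 and 7.15, which overlapped the late 1-cell controls. The early 2-cell knockout medians lay between those of the late 1-cell and the early 2-cell controls in both classes. The 3 early 2-cell knockout libraries did not overlap the 3 early 2-cell controls. The rows fallen only later also lay between, at 5.54 to 5.92 FPKM in the early 2-cell knockout embryos against 6.51 to 6.82 and 4.72 to 4.94 FPKM in the controls of the 2 stages. So did the rows in neither kind of class, at 5.56 to 5.61 FPKM against 5.92 to 6.05 and 5.17 to 5.27 FPKM. Lying between was thus not particular to rows that change with the stage. The rows risen only later did not lie between. Their early 2-cell knockout medians, 2.89 to 3.003 FPKM, were above both the late 1-cell controls (2.37 to 2.61 FPKM) and the early 2-cell controls (2.51 to 2.69 FPKM). These medians are of the FPKM as deposited and were not computed under median-of-ratios scaling. Each library is a bulk sample of embryos, so fewer cells with a transcript and less of it in each cell cannot be told apart. The collection hour of the libraries is not given, so a shift in developmental timing at collection and an effect of the knockout cannot be told apart.

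**Figure D2:**
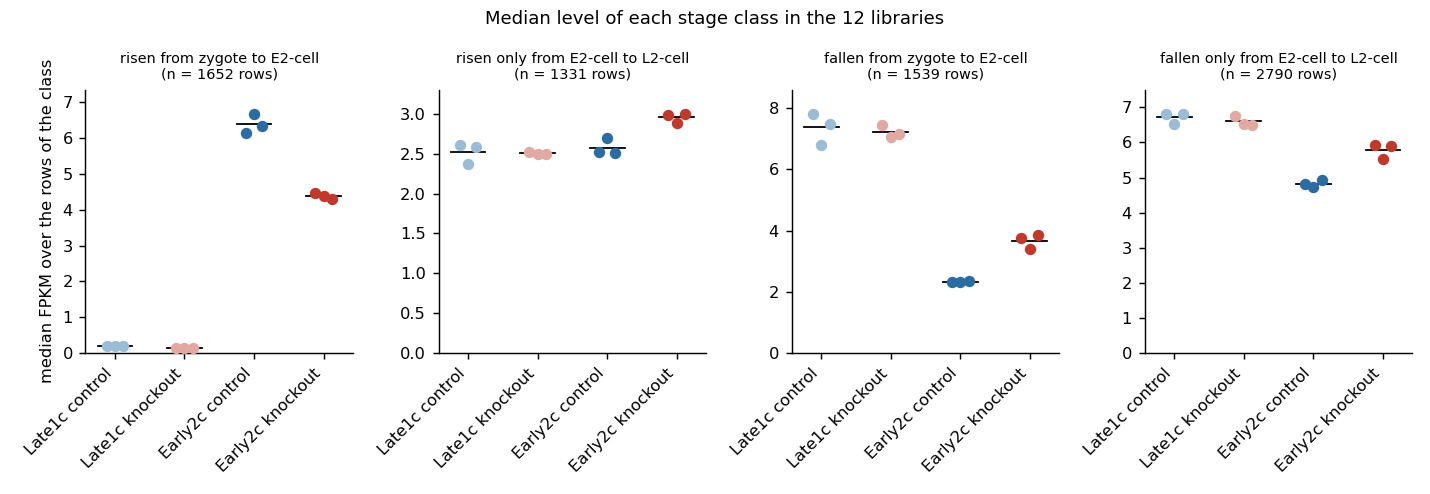
Median FPKM (vertical axis, starting at 0) of the rows of 4 stage classes in each of the 12 libraries (points, by stage and genotype on the horizontal axis). The early 2-cell knockout points of the rows risen from zygote to E2-cell sit at 4.32 to 4.48, below the controls at 6.14 to 6.69, and those of the fallen rows sit at 3.41 to 3.84, above the controls at 2.32 to 2.34.

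Long noncoding RNAs and unannotated loci held most of the large falls of the risen class. Of its 111 annotated long noncoding RNAs, 87 were lower and 1 was higher, with a median of -0.91. Of its 441 XLOC loci, 375 were lower and 9 higher, with a median of -1.16, and 261 were lower by at least 1, out of 373 such rows in the class. Its 754 protein-coding genes had 276 lower and 86 higher, with a median of -0.13, and its 265 pseudogenes had 93 lower and 42 higher, with a median of -0.15. Coding genes and pseudogenes of the class lay on both sides of 0. In the class fallen by the E2-cell, 1003 of 1341 protein-coding genes were higher and 18 lower, with a median of 0.52. Over all classes together, 492 of 1301 XLOC loci were lower and 266 higher (median -0.05), 153 of 656 annotated long noncoding RNAs were lower and 157 higher (median 0.07), and 1119 of 8690 protein-coding genes were lower and 3393 higher (median 0.13). Annotated long noncoding RNAs as a whole thus had about as many higher as lower calls.

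Many of the falling long noncoding RNAs begin with nearly the same sequence. An 18-base stretch was the most frequent stretch of that length in the annotated transcripts of rows risen from zygote to E2-cell; it was picked from the stage series after the data had been seen, is used only to describe, and was searched on the transcript strand alone. It was present in 86 of the 1211 risen rows with annotated sequence (7.10%), in 37 of 9472 other rows (0.391%) and in 196 of all 55450 annotated genes (0.353%). In 115 of the 123 rows that hold it, the stretch started within the first 100 bases of a transcript. The median start over the 123 rows was base 50, and the earliest start was taken where several transcripts hold it. The 115 include 13 small RNA genes with the stretch at bases 97 to 114 of 120 or 121, near the far end of the annotation. No repeat annotation was used here, so the repeat family it belongs to is not stated. The first bases of 4 intergenic long noncoding RNAs that hold it and were lower, and of 1 that holds it and was not called, are printed because they show how alike the transcript starts are; capitals mark the 18-base stretch, and sequence and exon positions are from GENCODE M21 on GRCm38.
Gm28826, chr1:47153461-47153551, plus strand: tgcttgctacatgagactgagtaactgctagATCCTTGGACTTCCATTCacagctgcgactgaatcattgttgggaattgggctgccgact
Gm45593, chr7:12825918-12826027, plus strand: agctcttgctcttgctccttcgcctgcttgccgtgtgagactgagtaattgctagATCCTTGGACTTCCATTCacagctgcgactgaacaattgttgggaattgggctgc
Gm14929, chrX:119749568-119749677, minus strand: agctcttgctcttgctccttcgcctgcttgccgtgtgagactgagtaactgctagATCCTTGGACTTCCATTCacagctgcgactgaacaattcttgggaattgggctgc
Gm48829, chr13:18645240-18645349, minus strand: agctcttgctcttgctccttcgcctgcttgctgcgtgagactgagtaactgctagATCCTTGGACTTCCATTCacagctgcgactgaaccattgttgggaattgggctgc
Gm48419, chr13:67965483-67965586, plus strand: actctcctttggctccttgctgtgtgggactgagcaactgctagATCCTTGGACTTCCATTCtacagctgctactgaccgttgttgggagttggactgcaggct

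All 5 windows lie in the first exon of the annotated transcript. Gm28826 was at 7.13, 6.69 and 8.51 FPKM in the controls and 1.72, 1.57 and 1.33 FPKM in the knockout embryos (difference -1.96 ± 0.11, adjusted p = 2.1e-07). Gm45593 was at 6.72, 7.22 and 5.25 FPKM in the controls and 1.49, 0.987 and 1.64 FPKM in the knockout embryos (-1.89 ± 0.14, adjusted p = 1.2e-06). Every control value of both RNAs was above 5 FPKM and every knockout value below 2 FPKM. Gm14929 (-1.85 ± 0.13) and Gm48829 (-1.73 ± 0.11) were lower by similar amounts. These 4 RNAs were all below 0.1 FPKM in the 6 late 1-cell libraries. Gm48419, which holds the same 18 bases, was at 6.64, 6.69 and 7.49 FPKM in the controls and 8.14, 7.30 and 7.97 FPKM in the knockout embryos (0.16 ± 0.08, adjusted p = 0.13). Its values overlapped between the groups, so a row can hold the stretch without a called difference.

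Rows that hold the stretch were mostly lower where they belong to the risen class. Of the 86 risen holders, 71 (82.6%) were lower, with a median of -0.95, and in the limma fit 0 were higher, also at an unadjusted p below 0.05. Of the 1125 risen Ensembl rows without it, 419 (37.2%) were lower and 130 (11.6%) were higher, with a median of -0.15. These sets differ in their kinds of RNA. Of all 111 risen annotated long noncoding RNAs, with or without the stretch, 78.4% were lower, against 36.6% of the risen protein-coding genes. Risen rows with and without the stretch were not compared within a kind of RNA, so stretch and kind cannot be told apart here. Of the 37 holders that had not risen by the E2-cell, 9 were lower and 7 higher, with a median of -0.05. The 51 holders that are long noncoding RNAs had 42 lower (median -1.13), and the 55 protein-coding holders had 25 lower and 7 higher (median -0.17). The 68 genes in which every annotated transcript holds the stretch had a median of -0.99, and the 55 in which only some do had a median of -0.19. An FPKM sums the transcripts of a gene and does not say which of them was lost. Holders resemble one another around the stretch, so reads may be shared among them and their counts may not be independent. They include 13 small RNA genes, of which 9 were lower. Some holders passed the FPKM rule only through the controls and could hardly come out other than lower. An example is Gm22862, at 2.34, 2.02 and 3.12 FPKM in the controls and 0.302, 0.392 and 0.256 FPKM in the knockout embryos. The holder counts were not made without such rows. The median FPKM of all holders at the late 1-cell stage was 0.143, 0.132 and 0.101 in the controls. In the late 1-cell knockout embryos it was 0.075, 0.033 and 0.074, below every late 1-cell control. The difference between these medians was not tested. Falls were also common in risen rows that lack these 18 bases, as the count of 419 shows.

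**Figure D3:**
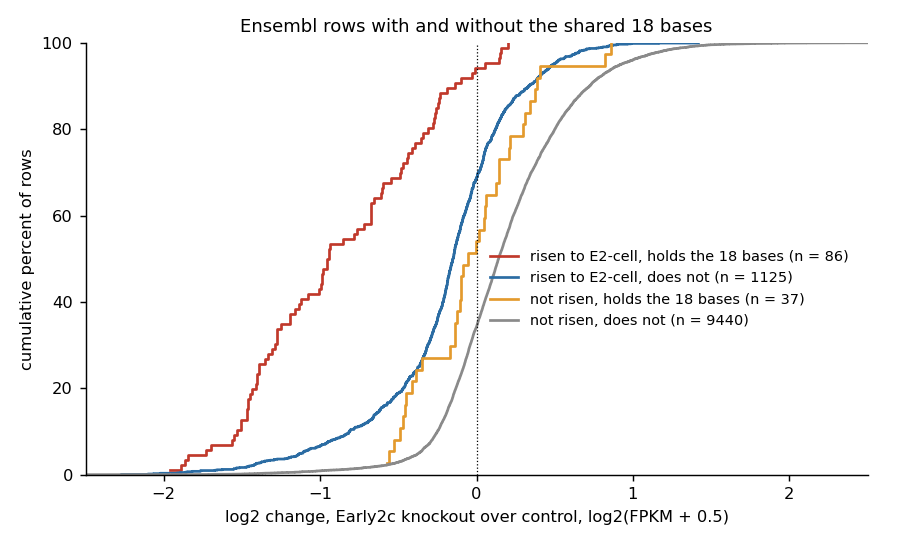
Cumulative share of rows (vertical axis, percent) at or below a given log2(FPKM + 0.5) difference between knockout and control embryos (horizontal axis), for rows that had or had not risen from zygote to E2-cell and that do or do not hold the 18-base stretch. The curve of the 86 risen holders lies furthest to the left, with its median at -0.95, against -0.15 for the 1125 risen rows without the stretch. The sets differ in their kinds of RNA.

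The largest falls among rows with a mean of at least 5 FPKM in the higher group were in rows not annotated as protein-coding genes. Whether the unannotated loci code for protein was not examined. The unannotated locus XLOC_027969 was at 18.6, 20.6 and 15.2 FPKM in the controls and 2.29, 1.91 and 2.71 FPKM in the knockout embryos (-2.73 ± 0.12, adjusted p = 5.7e-08), and it was below 0.1 FPKM in all 6 late 1-cell libraries. The intergenic RNA Gm47897 was at 11.5, 13.7 and 11.3 FPKM and 2.72, 1.99 and 2.92 FPKM (-2.06 ± 0.14, adjusted p = 6.0e-07); it does not hold the 18 bases. Both were separated from the controls by a wide gap. Platr31, a long noncoding RNA named for its association with pluripotency in embryonic stem cells, was at 4.79, 6.99 and 6.11 FPKM in the controls and 1.37, 1.69 and 1.97 FPKM in the knockout embryos (-1.57 ± 0.19, adjusted p = 3.4e-05), and it holds the stretch. The pseudogenes Gm16038 (-3.11 ± 0.22) and Gm12723 (-2.10 ± 0.25) were also lower in every knockout library. Reads of a pseudogene can belong to a near-identical copy elsewhere, so these 2 values are uncertain. The same holds for 2 overlapping rows of the small nucleolar RNA gene Rnu3a, of which 1 was lower (-4.01 ± 0.65) and the other higher (3.79 ± 0.72), since their coordinates differ by 1 base at one end.

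Over all 8690 protein-coding rows 39% were higher and 12.9% lower, and the counts of the protein-coding gene lists stand beside these shares. The protein-coding markers of the 2-cell stage moved apart from one another. Spz1, a helix-loop-helix transcription factor gene on chromosome 13 (92574636 to 92576172), was at 13.9, 13.4 and 13.4 FPKM in the controls and 4.40, 4.36 and 4.30 FPKM in the knockout embryos (-1.54 ± 0.15, adjusted p = 7.4e-06). Zscan4c, a member of the Zscan4 family of zinc finger genes that are transcribed in a burst in 2-cell embryos, was at 67.0, 68.6 and 68.0 FPKM and 46.3, 45.5 and 46.6 FPKM (-0.55 ± 0.06, adjusted p = 1.9e-05). It was at 1.303 to 1.36 FPKM in the late 1-cell controls, which is far below both early 2-cell groups, so the early 2-cell label fits this marker in both genotypes. The groups did not overlap in either gene, and the fall of Spz1 was the larger.

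Of the 6 Zscan4 rows, 4 were lower and, in the limma fit, 0 were higher, also at an unadjusted p below 0.05. Zscan4d was at 50.5, 45.6 and 42.6 FPKM in the controls and 33.0, 27.9 and 28.7 FPKM in the knockout embryos (-0.62 ± 0.14, adjusted p = 0.003). Zscan4a (-0.38 ± 0.08) and Zscan4f (-0.32 ± 0.08) were lower by less, and the call of Zscan4a was lost with a pseudocount of 0.1. Zscan4e, by contrast, was at 57.3, 56.9 and 55.2 FPKM and 61.3, 53.6 and 52.4 FPKM (-0.02 ± 0.07, adjusted p = 0.81), and Zscan4b also overlapped between the groups (-0.06 ± 0.09). The copies of this cluster on chromosome 7 are close relatives, so reads may be shared among them and the split between members is uncertain.

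Among 39 other genes known for expression at the 2-cell stage, 14 were lower and 6 higher, with a median of -0.16. The lower count was 8 without control replicate 1 and 7 without knockout replicate 2 or 3. B020004J07Rik, which has an annotated transcript that holds the 18-base stretch, was at 15.2, 15.96 and 16.5 FPKM in the controls and 6.79, 7.45 and 6.81 FPKM in the knockout embryos (-1.12 ± 0.08, adjusted p = 9.5e-07), and AF067061 was lower by 0.72 (-0.72 ± 0.11). Zfp352, a zinc finger gene used as a marker of the 2-cell state, was at 34.9, 38.7 and 40.2 FPKM and 38.3, 34.8 and 34.0 FPKM (-0.08 ± 0.07, adjusted p = 0.37), with overlapping groups; under median-of-ratios scaling it was called lower, at -0.23. Duxf3, the double homeobox factor Dux that switches on MERVL and many 2-cell genes in stem cells, was higher: 4.04, 3.19 and 3.88 FPKM in the controls and 6.75, 8.11 and 5.26 FPKM in the knockout embryos (0.77 ± 0.14, adjusted p = 7.8e-04). Its groups did not overlap, and it was below 1 FPKM in all 6 late 1-cell libraries. Duxf3, Zfp352, Zscan4b, Zscan4e, Gm14929, Gm48829 and Gm48419 were chosen after their values were seen.

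Arg2, an arginase gene on the same list of 2-cell genes, went the other way. It was at 16.3, 19.4 and 16.5 FPKM in the controls and 48.4, 39.2 and 48.5 FPKM in the knockout embryos (1.36 ± 0.10, adjusted p = 1.3e-06). In the stage series it belonged to the rows that fell from zygote to E2-cell, and it was at 70.0 to 83.3 FPKM in the late 1-cell controls. Its knockout values therefore lay between the late 1-cell and the early 2-cell controls.

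The Obox family of oocyte and early embryo homeobox genes was higher on balance of its calls: 25 of 39 rows were higher and 2 lower, with a median of 0.39. Obox2 was at 67.1, 59.8 and 63.1 FPKM in the controls and 97.4, 87.4 and 93.6 FPKM in the knockout embryos (0.55 ± 0.08, adjusted p = 2.5e-04). The row Obox4-ps35 was lower, at 19.3, 24.01 and 21.8 FPKM and 14.03, 13.0 and 12.0 FPKM (-0.71 ± 0.09, adjusted p = 3.9e-05), whereas Obox4-ps18 was higher (0.48 ± 0.07). Many of these rows are near-identical copies on chromosome 7, so the values of single rows are uncertain. Of 13 rows of the Pramel, Pramef and Oog family, 3 were higher, with a median of 0.05, and in the limma fit 0 were lower, with 1 lower at an unadjusted p below 0.05.

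Among 27 regulators of genome activation, 17 were higher and 2 lower, with a median of 0.29; under median-of-ratios scaling 9 were higher and 4 lower. Dppa2, a chromatin protein that acts upstream of Dux, was at 17.8, 18.2 and 15.9 FPKM in the controls and 26.4, 24.8 and 27.8 FPKM in the knockout embryos (0.59 ± 0.07, adjusted p = 2.6e-05). Nr5a2, a nuclear receptor implicated in activation of the 2-cell genome, was at 8.54, 7.76 and 8.10 FPKM and 11.1, 11.5 and 11.3 FPKM (0.45 ± 0.05, adjusted p = 3.5e-05). Klf17, a Krüppel-like factor deposited in the egg, was at 192, 172 and 186 FPKM and 263, 250.2 and 256 FPKM (0.48 ± 0.05). The 3 genes did not overlap between the groups, and their knockout values were close to the late 1-cell controls, at 23.98 to 25.9 FPKM for Dppa2, 12.3 to 13.5 FPKM for Nr5a2 and 242 to 265 FPKM for Klf17. Yap1, the co-activator of the Hippo pathway, was lower, at 95.4, 103 and 95.9 FPKM and 71.3, 75.6 and 74.6 FPKM (-0.41 ± 0.06, adjusted p = 1.6e-04); it was chosen after its values were seen.

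Of 37 genes that repress retroelements or methylate DNA, 16 were higher and 2 lower with a median of 0.14, but 10 were higher and 12 lower under median-of-ratios scaling, so no direction is given for the list. Zfp809, a zinc finger protein that recognises the primer binding site of retroviruses, was at 10.7, 10.3 and 10.2 FPKM in the controls and 4.88, 4.59 and 3.76 FPKM in the knockout embryos (-1.15 ± 0.12, adjusted p = 1.1e-05). Every knockout value was below 5 FPKM and every control above 10. Pcgf6, a Polycomb ring finger protein that silences germline genes, was at 17.01, 17.8 and 18.4 FPKM and 35.3, 31.1 and 37.6 FPKM (0.94 ± 0.07, adjusted p = 1.1e-06). Zfp57, which protects the methylation of imprinted regions (0.59 ± 0.06), and Dnmt1, the maintenance DNA methyltransferase (0.66 ± 0.06), were higher as well.

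**Figure D4:**
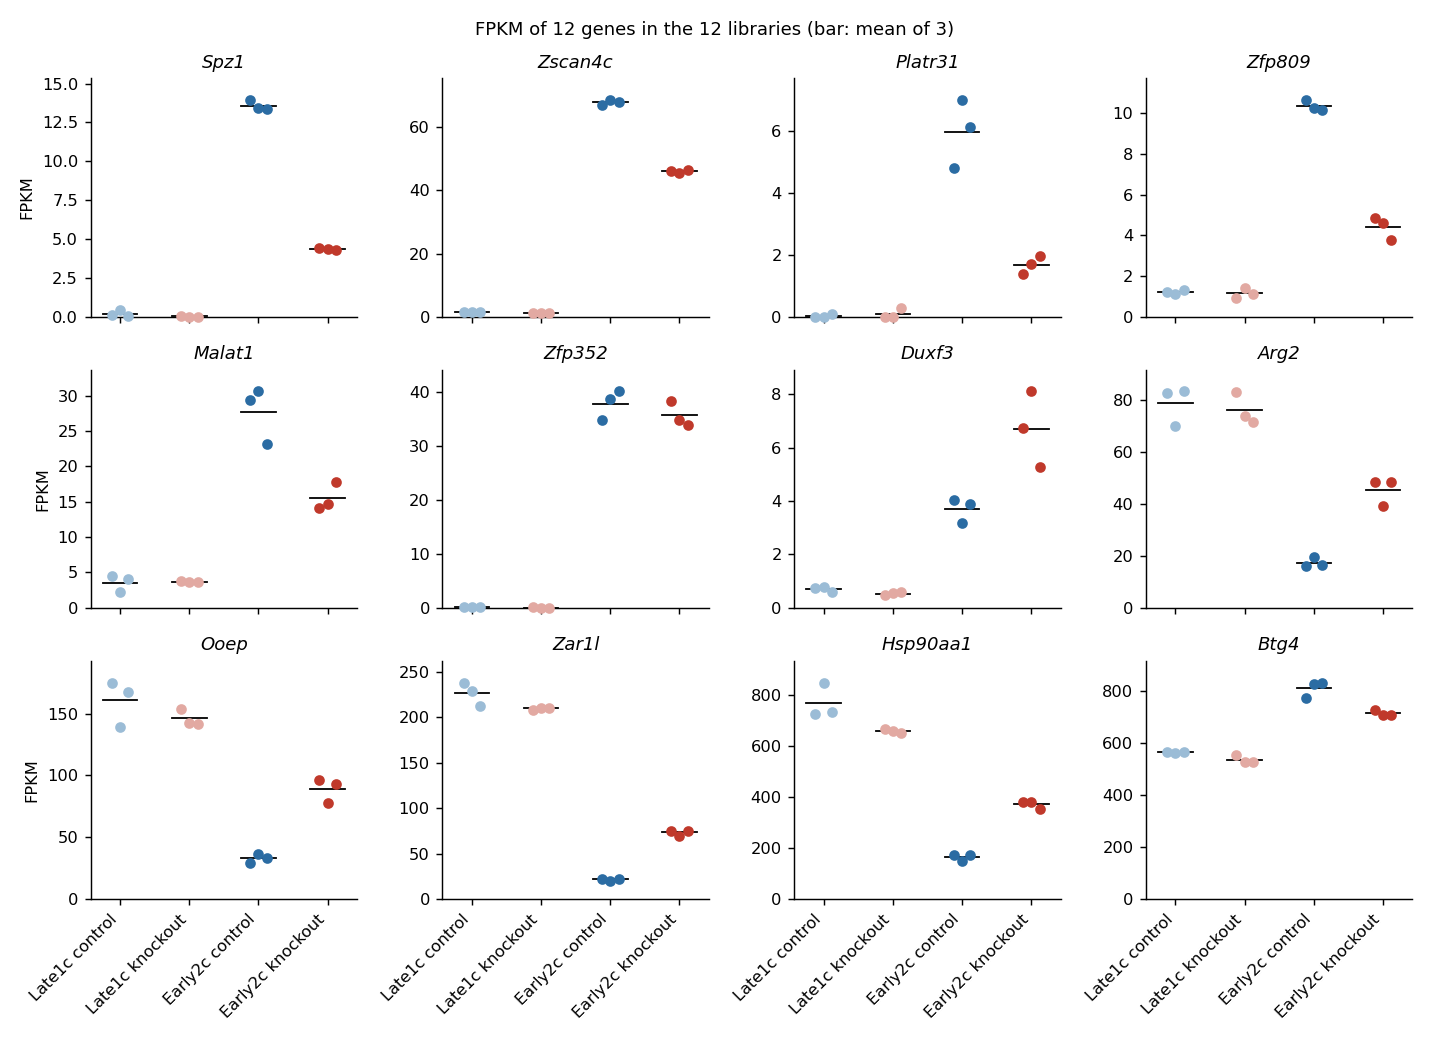
FPKM of 12 genes (1 panel each, vertical axes from 0 with their own ranges) in each early 2-cell and late 1-cell library by genotype (horizontal axis). Spz1, Zscan4c, Platr31, Zfp809 and Malat1 are lower in the 3 early 2-cell knockout libraries than in the 3 controls, Zfp352 overlaps, Duxf3, Arg2, Ooep, Zar1l and Hsp90aa1 are higher, and Btg4 is slightly lower.

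Several oocyte genes that decline in 2-cell embryos were higher in the knockout. Zar1l, a maternal zinc finger protein gene of the egg, was at 22.5, 20.3 and 21.8 FPKM in the controls and 75.4, 69.8 and 75.1 FPKM in the knockout embryos (1.75 ± 0.05, adjusted p = 1.9e-08), against 213 to 238 FPKM in the late 1-cell controls. Rgs2, a regulator of G protein signalling that is translated as the oocyte matures, was at 21.7, 22.1 and 25.2 FPKM and 73.6, 63.4 and 77.8 FPKM (1.61 ± 0.08, adjusted p = 1.4e-07). Both genes had all knockout values more than 2 times every control value. Nobox, a homeobox factor of the growing oocyte (0.74 ± 0.06), and Cpeb1, which controls the polyadenylation of stored RNA (0.62 ± 0.06), were also higher. Over the 32 oocyte regulators 15 were higher and 6 lower with a median of 0.13, but 9 were higher and 15 lower under median-of-ratios scaling. The lower count was 2 without control replicate 3 and 3 without control replicate 2 or any 1 knockout replicate.

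The next list holds 18 genes of the subcortical maternal complex, which forms part of the egg's cortical protein lattice, and of the oocyte Nlrp family. Of these, 11 were higher and 1 lower, with a median of 0.33. All 3 knockout values lay above all 3 controls in 13 genes and below them in 3. The summed FPKM of the list went the other way, at 7739.67 to 8103.6 in the controls and 7413.58 to 7655.06 in the knockout embryos. More genes of the list were thus higher, but their summed level was lower. Ooep was at 29.0, 36.7 and 32.9 FPKM in the controls and 96.5, 77.9 and 93.4 FPKM in the knockout embryos (1.43 ± 0.11, adjusted p = 1.2e-06). Padi6, which is needed to form the lattice, was at 45.9, 38.2 and 44.4 FPKM and 101, 86.6 and 109 FPKM (1.20 ± 0.11, adjusted p = 6.0e-06). Neither gene overlapped between the groups, and both were higher still in the late 1-cell controls, at 139 to 175 FPKM and 253 to 340.0 FPKM. Nlrp5 (0.69 ± 0.10), Nlrp9b (0.60 ± 0.10) and Tle6 (1.004 ± 0.19) were also higher. Khdc3, another gene of the complex, was the lower one, at 3.33, 3.30 and 3.37 FPKM and 1.87, 2.69 and 1.83 FPKM (-0.56 ± 0.15, adjusted p = 0.01). Tle6 and Khdc3 were chosen after their values were seen.

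Of 15 genes of the egg coat, the egg surface and secreted oocyte proteins, 7 (46.7%) were higher and 2 (13.3%) lower, with a median of 0.26. These shares are near the 39% and 12.9% of all protein-coding rows. Cd9, a membrane protein of the egg needed for fusion with sperm, was at 2.496, 2.95 and 2.83 FPKM in the controls and 7.97, 6.96 and 8.49 FPKM in the knockout embryos (1.35 ± 0.09, adjusted p = 5.9e-07). Izumo1r, the egg receptor for the sperm protein Izumo1, was at 13.3, 14.1 and 12.8 FPKM and 29.9, 26.1 and 28.6 FPKM (1.04 ± 0.06, adjusted p = 2.1e-07). Oosp2, a secreted oocyte protein (1.29 ± 0.16), and Plat, the tissue plasminogen activator made in maturing oocytes (0.74 ± 0.05), were higher too. In all 4 genes the 3 knockout values were above the 3 controls.

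Of 27 factors of maternal RNA decay, 9 (33.3%) were higher and 5 (18.5%) lower with a median of 0.08, shares close to the 33.7% and 17.1% over all rows, and 7 were higher and 8 lower under median-of-ratios scaling. Pabpn1l, an oocyte poly(A)-binding protein that works in the clearance of maternal RNA, was at 9.70, 9.68 and 10.6 FPKM in the controls and 23.4, 24.7 and 24.4 FPKM in the knockout embryos (1.23 ± 0.06, adjusted p = 6.3e-08), and it was at 110.2 to 119 FPKM in the late 1-cell controls. Btg4, an adaptor that recruits the deadenylase to maternal RNA, was at 776, 828 and 834 FPKM and 729, 709 and 709 FPKM (-0.18 ± 0.05, adjusted p = 0.0084). Its groups did not overlap, but the difference was small, and it was chosen after its values were seen. Pan3, a subunit of a poly(A) nuclease, was lower by 0.35 (-0.35 ± 0.05). Of 4 abundant oocyte transcripts 3 were lower and 1 higher, with a median of -0.16; the lower count was 1 without control replicate 3 or knockout replicate 1 or 3. The higher one was the unnamed gene Gm813, from 3.93, 6.12 and 4.62 FPKM to 22.5, 18.01 and 27.6 FPKM (2.11 ± 0.17, adjusted p = 2.1e-06), and the abundant noncoding RNA C86187 was lower by a small amount (-0.25 ± 0.05).

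**Figure D5:**
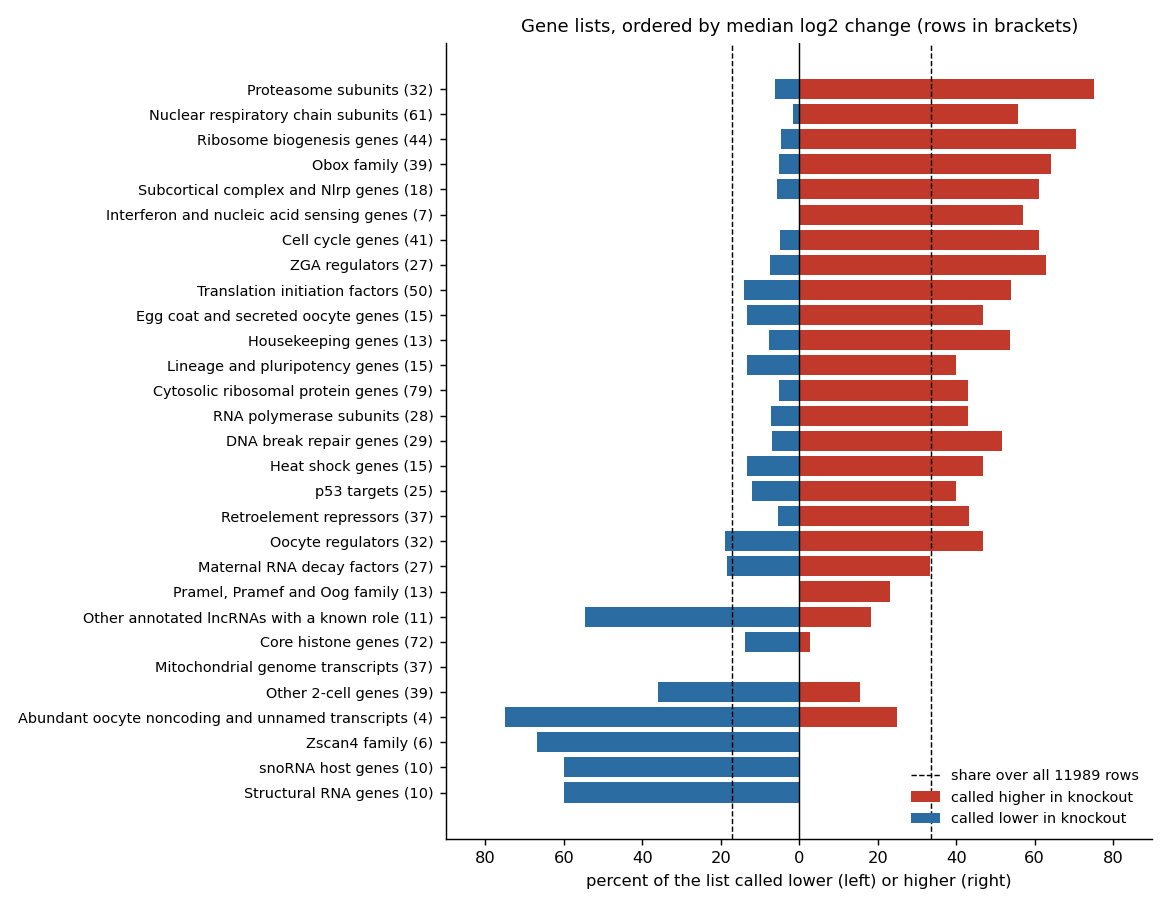
Percent of the rows of each gene list called higher (to the right) and lower (to the left) in the knockout embryos, with the number of rows of each list beside its name; dashed lines mark the share over all 11989 rows, 33.7% higher and 17.1% lower. Proteasome, ribosome biogenesis and Obox rows are among the many lists that pass the right dashed line. Over all protein-coding rows 39% were higher, which is also beyond it. Zscan4, snoRNA host, structural RNA, abundant oocyte transcript, other long noncoding RNA and other 2-cell rows are among those that pass the left one.

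Several noncoding RNAs of the RNA processing machinery were lower. Of 10 structural RNA genes, mostly transcribed by RNA polymerase III, 6 were lower with a median of -0.55, and in the limma fit 0 were higher, also at an unadjusted p below 0.05. Rpph1, the RNA of ribonuclease P, was at 731, 573 and 574 FPKM in the controls and 363, 378 and 311 FPKM in the knockout embryos (-0.83 ± 0.13, adjusted p = 2.2e-04). The ribozyme row of Rmrp, the RNA of the related enzyme that processes ribosomal RNA, was at 52.995, 36.6 and 57.9 FPKM and 15.5, 16.8 and 16.7 FPKM (-1.54 ± 0.22, adjusted p = 1.4e-04); a second Rmrp row covers the same bases, so the split between them is uncertain. Rn7sk, which restrains the elongation factor P-TEFb, was at 5787, 4853 and 6108 FPKM and 4174, 4493 and 3565 FPKM (-0.45 ± 0.12, adjusted p = 0.0075). The 3 RNAs had no overlap between groups, and all were lower in the late 1-cell controls than in the early 2-cell controls.

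Of 10 host genes of small nucleolar RNAs, 6 were lower with a median of -0.42, and in the limma fit 0 were higher, also at an unadjusted p below 0.05. The count of lower host genes was 3 without control replicate 3. Zfas1 was at 2.21, 1.96 and 4.74 FPKM in the controls and 1.09, 1.20 and 1.02 FPKM in the knockout embryos (-1.03 ± 0.26, adjusted p = 0.0059), with control replicate 3 well above the others. Snhg8 was lower as well (-0.78 ± 0.20). Malat1, the RNA of nuclear speckles, was at 29.3, 30.6 and 23.2 FPKM and 14.1, 14.6 and 17.8 FPKM (-0.81 ± 0.20, adjusted p = 0.0049), without overlap. Over all small RNA genes 84 of 378 rows were lower and 11 higher, with a median of -0.32; these genes took 45.03 to 55.4% of the summed FPKM in the controls, with control replicate 1 at 55.4%, and 40.5 to 43.2% in the knockout embryos.

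Protein genes of the growth machinery had more higher than lower calls, as had the protein-coding rows as a whole (39% higher, 12.9% lower). Of 32 proteasome subunits, 24 (75%) were higher and 2 lower, with a median of 0.66. Psmd12, a subunit of the regulatory lid, was at 4.27, 3.64 and 3.44 FPKM in the controls and 12.1, 10.9 and 11.4 FPKM in the knockout embryos (1.49 ± 0.07, adjusted p = 1.1e-07). Psmc5, an ATPase of the base, was at 7.76, 8.03 and 8.58 FPKM and 22.1, 20.7 and 23.9 FPKM (1.40 ± 0.07). Both were higher still in the late 1-cell controls, at 27.5 to 31.2 FPKM and 44.1 to 52.0 FPKM, and the catalytic core subunit Psma4 followed the same order (1.13 ± 0.05).

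Of 44 ribosome biogenesis genes 31 (70.5%) were higher and 2 lower, with a median of 0.42, and of 61 nuclear-encoded respiratory chain subunits 34 (55.7%) were higher and 1 lower, with a median of 0.46. Taf1a, a subunit of the RNA polymerase I selectivity factor, was at 9.70, 10.3 and 9.74 FPKM in the controls and 25.05, 22.6 and 26.9 FPKM in the knockout embryos (1.28 ± 0.06, adjusted p = 5.2e-08), and the pseudouridine synthase gene Dkc1 was higher by 0.82 ± 0.05. Sdhd, a membrane anchor of succinate dehydrogenase, was at 1.70, 1.88 and 2.32 FPKM and 7.19, 5.86 and 7.48 FPKM (1.58 ± 0.13, adjusted p = 1.8e-06), and the complex III core gene Uqcrc2 was higher by 1.44 ± 0.09. No control value of the 4 genes reached a knockout value. The 37 rows of the mitochondrial genome itself had a median of -0.12 and, in the limma fit, 0 calls, also at an unadjusted p below 0.05; under median-of-ratios scaling 11 of them were called lower.

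Of 79 cytosolic ribosomal protein rows, 34 (43.0%) were higher and 4 lower with a median of 0.22, a share near that of all coding rows, and of 50 translation initiation factors 27 (54.0%) were higher and 7 lower with a median of 0.27. Rpl4 was at 24.4, 26.4 and 23.4 FPKM in the controls and 55.3, 50.1 and 55.8 FPKM in the knockout embryos (1.103 ± 0.06, adjusted p = 2.1e-07). Eif3e, a subunit of the initiation factor that binds the small ribosomal subunit, was at 0.811, 0.913 and 0.707 FPKM and 3.49, 3.13 and 4.33 FPKM (1.66 ± 0.11, adjusted p = 4.1e-07). The elongation factor gene Eef1a1, one of the housekeeping genes, was higher by 1.06 ± 0.07. Ribosomal protein genes have many processed pseudogenes, which makes single rows uncertain.

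Of 41 cell cycle genes 25 were higher and 2 lower with a median of 0.31; under median-of-ratios scaling 20 were higher and 11 lower. Mcm4, a subunit of the replicative helicase, was at 26.7, 25.8 and 24.9 FPKM in the controls and 42.6, 42.8 and 45.9 FPKM in the knockout embryos (0.75 ± 0.04, adjusted p = 2.8e-07), and the licensing factor Cdc6 (0.84 ± 0.08) and the mitotic kinase Plk1 (0.60 ± 0.05) were higher too. Of 72 histone rows 10 were lower and 2 higher with a median of -0.10, but 31 were lower under median-of-ratios scaling, and leaving out 1 library brought the lower count to between 2 and 5 for every library but control replicate 2. The replication-independent histone gene H3f3a was higher, at 17.7, 21.0 and 20.5 FPKM and 47.6, 41.7 and 44.7 FPKM (1.16 ± 0.07, adjusted p = 3.9e-07).

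Stress genes were called both ways. Of 15 heat shock genes 7 (46.7%) were higher and 2 (13.3%) lower, with a median of 0.17. These shares are near the 39% and 12.9% of all protein-coding rows. Hsp90aa1, the inducible cytosolic HSP90, was at 173, 148 and 174 FPKM in the controls and 379, 380.1 and 355 FPKM in the knockout embryos (1.17 ± 0.08, adjusted p = 4.6e-07), against 726 to 849.6 FPKM in the late 1-cell controls. Bag3, a co-chaperone induced by stress, was at 3.50, 3.58 and 2.52 FPKM and 7.52, 6.75 and 7.17 FPKM (1.06 ± 0.11, adjusted p = 1.7e-05) and, unlike Hsp90aa1, was below 0.1 FPKM in all 6 late 1-cell libraries. Bag3 thus appeared between these stages in both genotypes and was higher in the knockout, whereas the Hsp90aa1 values lay between those of the 2 control stages.

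Of 25 p53 genes 10 (40.0%) were higher and 3 (12.0%) lower, with a median of 0.15. These shares are close to the 39% and 12.9% of all protein-coding rows. Under median-of-ratios scaling 5 were higher and 5 lower. Without control replicate 1 or knockout replicate 3 the higher count was 6. Plk3, a kinase induced by DNA damage, was at 2.39, 1.90 and 2.42 FPKM in the controls and 4.89, 5.22 and 4.54 FPKM in the knockout embryos (0.98 ± 0.10, adjusted p = 1.5e-05), and Trp53 itself was higher by 0.47 ± 0.06. The best known targets were not called: Cdkn1a, the cell cycle inhibitor p21, differed by 0.28 ± 0.12 (adjusted p = 0.073) and Mdm2, the ubiquitin ligase of p53, by -0.05 ± 0.05 (adjusted p = 0.48; -0.19 and called under median-of-ratios scaling). Cdkn1a and Mdm2 were chosen after their values were seen. Of 29 genes of DNA break repair, 15 were higher and 2 lower with a median of 0.20, among them Xrcc6, a subunit of the end-binding Ku protein (1.181 ± 0.10). Of 15 lineage and pluripotency genes 6 (40.0%) were higher and 2 (13.3%) lower, with a median of 0.23. These shares too are close to those of all protein-coding rows. Klf4, 1 of this list, was at 7.58, 8.48 and 7.66 FPKM and 10.97, 12.6 and 11.1 FPKM (0.52 ± 0.10, adjusted p = 0.001).

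The largest rises among protein-coding rows with a mean of at least 5 FPKM in the higher group included a nuclear import receptor and a telomere protein. Kpna2, an importin alpha abundant in eggs, was at 56.3, 61.4 and 60.2 FPKM in the controls and 255, 224 and 257 FPKM in the knockout embryos (2.04 ± 0.08, adjusted p = 2.5e-08), and the late 1-cell controls were at 228 to 263 FPKM. The gene Gm10184 (1.97 ± 0.09) and the pseudogene Gm10259 (2.03 ± 0.10) had nearly the same profile at a lower level and may share reads with Kpna2. Terf1, which binds telomere repeats, was at 5.76, 5.16 and 4.45 FPKM and 20.4, 17.6 and 22.8 FPKM (1.88 ± 0.10, adjusted p = 1.3e-07). Fam50a, a nuclear protein gene, was at 5.76, 5.49 and 6.04 FPKM and 24.8, 22.4 and 23.7 FPKM (1.95 ± 0.06, adjusted p = 1.9e-08). All 3 were clear of the controls in every library. The antisense row Gm16549 was listed at 0 in all 3 controls and at 8.02, 9.16 and 8.22 FPKM in the knockout embryos; it was also listed at 0 in 1 late 1-cell knockout library and at 7.90 to 8.61 FPKM in the other late 1-cell libraries.

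Not every large rise was in a gene that the late 1-cell embryo holds at a higher level. Meioc, a germ cell gene of meiotic prophase, was at 1.45, 1.62 and 1.51 FPKM in the controls and 6.76, 5.26 and 6.65 FPKM in the knockout embryos (1.72 ± 0.11, adjusted p = 5.0e-07), and at 0.837 to 0.938 FPKM in the late 1-cell controls. Socs3, a feedback inhibitor of cytokine signalling, was at 1.80, 1.40 and 1.45 FPKM and 6.27, 5.97 and 6.09 FPKM (1.69 ± 0.14, adjusted p = 2.6e-06), and at 1.82 to 2.13 FPKM in the late 1-cell controls. The early 2-cell knockout values of both genes exceeded every value of both control stages. In the opposite sense, A530040E14Rik was lower in the knockout although it belongs to the rows that fall from zygote to E2-cell, at 8.55, 9.05 and 8.31 FPKM and 4.07, 2.66 and 4.18 FPKM (-1.17 ± 0.19, adjusted p = 4.5e-04).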

How the data were processed

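Total RNA of 12 samples was used, 3 for each of 4 MT2Mm groups, with 16 wild-type stage samples for the classes. The values are FPKM as the authors deposited them, 1 table for the whole series. Cutadapt 1.18, HISAT2 2.1.0, StringTie 1.3.4d, Cufflinks and Cuffdiff 2.2.1 with the build GRCm38 are named in the submitters' processing notes, without their roles; per the labels' protocols rRNA was depleted and reads were 150 bases in pairs, and the kit used for each library is not given. Of 54446 Ensembl rows, 54409 were found in GENCODE M21 (GRCm38), 53229 in the same version. The depth is unknown, since FPKM keeps no whole reads here.

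Rows with at least 1 FPKM in 3 of the 12 columns (13180) were fitted on log2(FPKM + 0.5) with limma 3.58.1 (R 4.3.3, trended variances, 4 groups), and p-values were adjusted by Benjamini and Hochberg over all of them; the difference of the knockout effects at the 2 stages is an interaction term of the same fit. On simulated data with 200 rows changed by a log2 of 1, 97% were recovered and 6.73% of calls were false. The simulation had independent noise, no shift in library composition and far fewer changed rows than were called here. Its share of false calls therefore does not carry over to the calls in the data. Named rows are up to 4 per gene list at any level (called rows first, by adjusted p) and, among called rows without overlap and with a mean of at least 5 FPKM in the higher group, the 12 largest changes each way and the 3 or 4 largest per stage class and kind of RNA; exceptions are stated. The members and the 31 gene lists were chosen with earlier results of these data known. Alternatives were other pseudocounts, scalings, filters, samples, leaving out each library and a replicate block. Figures were drawn with Matplotlib 3.10.9.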

Additional observations from a re-analysis of the deposited data

Results flagged for a closer look

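The knockout effect at the early 2-cell stage differed from that at the late 1-cell stage in 4706 rows, by an interaction term of the limma fit with an adjusted p below 0.05. The values in this paragraph are that difference, the early 2-cell effect minus the late 1-cell effect, in log2 units, for the genes named above. No explanation was tested for any of them. Rows near 0 FPKM in the late 1-cell libraries have an effect there that the pseudocount of 0.5 holds near 0. Their value here mostly repeats the early 2-cell effect. Gm45593, listed at 0 in all 6 late 1-cell libraries, had -1.89 both for this difference and for its early 2-cell effect. Rows that rise from zygote to E2-cell and had a more negative effect at the early 2-cell stage gave -2.68 for XLOC_027969, -1.93 for Gm47897, -1.90 for Gm28826, -1.89 for Gm45593, -1.83 for Gm14929, -1.70 for Platr31, -1.64 for Gm48829, -1.14 for Spz1, -1.08 for B020004J07Rik, -1.07 for Zfp809, -0.91 for Malat1, -0.81 for Snhg8, -0.71 for Obox4-ps35, -0.59 for AF067061, -0.50 for Yap1, -0.37 for Zscan4c and -0.33 for Zscan4a. Rows of other classes with a more negative early 2-cell effect gave -1.08 for A530040E14Rik, -0.95 for Khdc3, -0.90 for Rpph1, -0.39 for Pan3 and -0.28 for C86187. Among rows that fall from zygote to E2-cell, the effect was more positive at the early 2-cell stage by 2.22 for Gm813, 2.14 for Kpna2, 2.13 for Gm10259, 2.03 for Gm10184, 1.86 for Zar1l, 1.81 for Eif3e, 1.76 for Sdhd, 1.56 for Ooep, 1.53 for Uqcrc2, 1.40 for Arg2, 1.39 for Hsp90aa1, 1.36 for Pabpn1l, 1.33 for Taf1a, 1.29 for Psma4, 1.29 for Padi6, 1.28 for Oosp2, 1.26 for Irf1, 1.20 for Xrcc6, 1.15 for Rpl4, 0.96 for Izumo1r, 0.94 for Cdc6, 0.82 for Tle6, 0.76 for Nobox, 0.64 for Plat and 0.62 for Dnmt1. Among rows that fall only after the E2-cell it was more positive by 1.72 for Rgs2, 1.15 for Eef1a1, 0.77 for Nlrp5, 0.67 for Nlrp9b, 0.66 for Mcm4, 0.64 for Zfp57, 0.62 for Obox2, 0.50 for Klf17 and 0.31 for Cpeb1. Rows in neither class gave 1.99 for Fam50a, 1.90 for Terf1, 1.61 for Meioc, 1.498 for Psmd12, 1.44 for Cd9, 1.41 for Psmc5, 1.20 for H3f3a, 1.03 for Pcgf6, 0.82 for Plk3, 0.53 for Trp53 and 0.53 for Plk1. Rows that rise by the E2-cell or the L2-cell but had a more positive early 2-cell effect gave 1.70 for Socs3, 1.12 for Bag3, 0.997 for Duxf3, 0.87 for Obox4-ps18, 0.84 for Dkc1, 0.68 for Klf4, 0.60 for Dppa2, 0.55 for Nr5a2 and 0.52 for Gm48419. The uncertain rows gave -2.89 for Gm16038, -1.74 for Gm12723, -6.19 for Rnu3a, 6.20 for Rnu3a, -1.26 for Rmrp and -1.24 for Rmrp, and Gm16549, listed at 0 in several libraries, gave 5.60.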

How the results depend on the processing

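Replicate numbers did not pair the samples: residual correlations of same-numbered early 2-cell libraries were -0.0202 to 0.0882. With a replicate block 5976 rows were called (3994 higher, 1982 lower), of which 5844 were shared with the 6087, and 4577 rows had a called difference between stages. Leaving out 1 library in turn gave 5190 to 5676 called rows (3515 to 3806 higher, 1675 to 1888 lower) and 4078 to 4598 rows with a called difference between stages. For the rows fallen from zygote to E2-cell it gave 12 to 19 lower rows, with 12 without knockout replicate 2. The early 2-cell libraries alone gave 5575 called rows, no filter on low values 5156, only the rows of the rule 6127, a pseudocount of 0.1 gave 5889 and of 1 gave 6113.

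Median-of-ratios scaling gave 2866 higher and 3334 lower rows, so that 46.2% of the calls were higher against 66.4%, and 4912 calls were shared. Under it 82 risen rows were higher, 270 rows risen only later were lower, 54 rows fallen by the E2-cell and 390 fallen only later were lower, 671 rows of neither class were higher and 1372 lower, and 4 holders of the shared stretch were higher. Scaling to the protein-coding sum gave 3560 higher and 2522 lower rows (58.5% higher), with 239 lower among rows fallen only later. Without a filter 13 rows fallen by the E2-cell were lower. With stage classes at a log2 of at least 2, 65 risen rows were higher and 462 lower, 85 risen only later were lower, 208 fallen rows were higher and 3 lower, 654 fallen only later were higher and 39 lower, and 2763 of neither class were higher and 1299 lower; these classes hold other numbers of rows by construction. For the other settings the cause was not tested. Since the depth is unknown, the counting error of low rows cannot be given.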

Other observations

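Of 28 subunits of the RNA polymerases 12 (42.9%) were higher and 2 lower in the early 2-cell knockout embryos, with a median of 0.22, near the 39% of all protein-coding rows. Of 13 housekeeping genes 7 were higher and 1 lower, with a median of 0.24. Among 7 interferon and nucleic acid sensing genes 4 were higher, with a median of 0.31, and 1 was higher and 1 lower under median-of-ratios scaling; Irf1, an interferon regulatory factor, was at 2.55, 2.63 and 2.52 FPKM in the controls and 6.53, 6.07 and 7.11 FPKM in the knockout embryos (1.20 ± 0.07, adjusted p = 2.9e-07 in the limma fit), against 17.9 to 20.7 FPKM in the late 1-cell controls. Of 11 other long noncoding RNAs with a known role 6 were lower and 2 higher, with a median of -0.10.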
